A study of Rattus norvegicus with 4 samples.

Results

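Voltage-gated and inward rectifier ion channels were examined in cultured heart muscle cells given carfilzomib, an irreversible inhibitor of the proteasome. The members were the genes whose symbol starts with Kcn (potassium channels), Cacna, Cacnb or Cacng (calcium channels), has the form Scn with a number and the letter a or b (sodium channels), or belongs to the Hcn family (pacemaker channels), with a mean estimated count of at least 10 over the 4 libraries. These were 80 of 129 genes with such a symbol and of 18699 genes in all, and they comprised 50 potassium, 16 calcium, 11 sodium and 3 pacemaker channel genes. The cells were neonatal rat ventricular myocytes from wild-type Sprague Dawley pups aged 1 to 3 days. All cultures carried 0.1 mM bromodeoxyuridine, which holds back dividing cells other than cardiomyocytes. RNA was sequenced from 2 libraries given vehicle and 2 given 1 µM carfilzomib, both for 24 h. Whether the libraries of a group are different cultures or rats is not labelled. The p-values therefore reflect library-to-library spread alone, which may be technical.

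The heartbeat of a cardiomyocyte is an electrical cycle made by these channels. Sodium channels carry the fast upstroke, calcium channels hold the plateau and start contraction, voltage-gated potassium channels end the action potential, and inward rectifier channels hold the resting voltage. Pacemaker channels open when the membrane becomes more negative and bring the cell back towards firing. Each channel is a pore-forming subunit, named alpha in most families, joined by accessory subunits that set its amount at the membrane and its kinetics.

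The libraries held 18757722 and 18736027 estimated counts with vehicle and 18884333 and 18655450 with carfilzomib. Levels are given as CPM, counts scaled to library size with TMM factors. Cacna1c and Kcnj2, the channel genes taken as markers of ventricular myocytes, were detected in every library. Markers of cardiomyocytes were abundant and all 11 were lower with carfilzomib. Their summed level was 29997 to 30251 CPM with vehicle and 6478 to 6696 CPM with carfilzomib. With vehicle most of that sum was Myh6 and Actc1. The falls of single markers ran from 1.28-fold for Tnnt2 to 13.8-fold for Myh6. All 8 fibroblast markers and all 7 smooth muscle and pericyte markers were lower too, at 27684 to 28241 CPM with vehicle and 14787 to 15511 CPM with carfilzomib for fibroblasts and at 4004 to 4155 CPM with vehicle and 1434 to 1468 CPM with carfilzomib for smooth muscle. Of the 7 macrophage markers 4 were tested and all 4 were lower (70.8 to 71.8 CPM with vehicle and 25.2 to 27.0 CPM with carfilzomib). Endothelial markers summed to 71.2 to 71.3 CPM with vehicle and 70.0 to 70.8 CPM with carfilzomib, with 1 of 6 higher and 2 lower, and atrial markers to 4325 to 4567 CPM with vehicle and 4152 to 4437 CPM with carfilzomib, with 3 of 4 lower. Nearly all of the atrial sum was Nppa, which did not pass, while Myl7 fell 6.70-fold and Sln 2.40-fold. No marker of these lists was at 0 in all 4 libraries. In such bulk samples fewer cells of a type and less RNA per cell cannot be told apart, and the part of the cell mixture in the results below was not tested.

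Channel genes were lower more often than higher after carfilzomib. Of the 80 genes 79 passed the low-count filter, and of those 42 were lower, 10 were higher and 27 did not pass the test (edgeR's quasi-likelihood test, Benjamini-Hochberg adjusted p under 0.05 over all 14519 genes tested). Lower calls made up 53.2% of the channel genes tested, where 30.1% of all genes tested were lower, and higher calls 12.7%, where 30.6% of all genes were higher. The share called in either direction was 65.8%, against 60.7% of all genes tested. Their median log2 fold change, carfilzomib over vehicle, was -0.55, while that of all genes tested was 0.00. A fall of at least 2-fold was called for 17 channel genes (7.38% of all genes tested) and a rise of at least 2-fold for 2 (3.74% of all genes). The groups did not overlap for 69 of the 80 channel genes, against 79.9% of all genes tested. The 2 carfilzomib libraries lay below both vehicle libraries for 52 of them, against 40.0% of all genes tested, and above them for 17, against 39.8%.

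**Figure D1:**
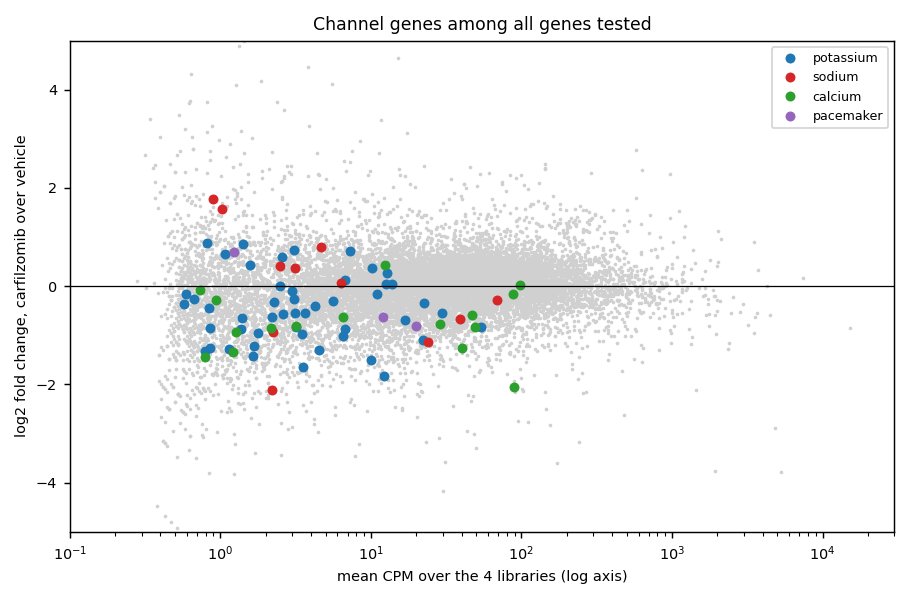
Log2 fold change, carfilzomib over vehicle, against the mean CPM over the 4 libraries (log axis) for all 14519 genes tested (grey) and the 79 channel genes tested (coloured by class); 9 grey genes lie beyond the plotted limit of 5. Among genes of at least 5 CPM most channel genes lie below 0.

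Weakly expressed genes were called less often: 29.9% of all genes under 1 CPM, 43.7% of those between 1 and 5 CPM and 66.8% of those of at least 5 CPM. Among channel genes with a mean of at least 5 CPM, 21 of 32 were lower and 4 higher, with a median log2 fold change of -0.61 where all genes of that level had 0.04. Of all 11276 genes of that level 3466 were lower and 4069 higher. Between 1 and 5 CPM 18 of 35 were lower and 5 higher, with medians of -0.58 for channel genes and -0.24 for all genes. All 2226 genes of that level had 691 lower and 282 higher. Below 1 CPM 3 of 12 were lower and 1 higher, with medians of -0.32 and -0.28. There, 211 of all 1017 genes were lower and 93 higher. Under 5 CPM higher calls were thus about as frequent among channel genes as among all genes, and below 1 CPM lower calls were too. The filter asked for about 0.533 CPM in at least 2 libraries. It was reached in all 4 libraries by 69 of the 79 genes and in 3 libraries by 8. Kcnd2 reached it only in the vehicle libraries and Scn10a only in the carfilzomib libraries, so these 2 had to differ to be tested and lend no weight to the counts. Kcnf1, whose mean count was equal to the minimum of 10, was not tested, and the next gene inside was Kcna2 at 10.7. Just outside lay Cacnb4 at 9.5 and Kcnk7 at 9.0.

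By class, the calcium channel genes had 12 of 16 lower (75.0%) and 1 higher (6.25%), with a median log2 fold change of -0.80. Of 49 potassium channel genes tested 23 were lower (46.9%) and 6 higher (12.2%), with a median of -0.54. The sodium channel genes were mixed, with 5 of 11 lower (45.5%) and 3 higher (27.3%) and a median of 0.06. Of the 3 pacemaker genes 2 were lower (66.7%) and none higher, with a median of -0.63. The remaining gene, Hcn3, did not pass. Over all genes tested 30.1% were lower and 30.6% higher, so the sodium share of higher calls was near that of all genes. In each class the summed level was below both vehicle libraries in both carfilzomib libraries. Summed calcium channel RNA was at 578 CPM and 577 CPM in the vehicle libraries and 361 CPM and 360.1 CPM in the carfilzomib libraries, and potassium channel RNA at 389.6 CPM and 381 CPM in the vehicle libraries and 273 CPM and 263 CPM in the carfilzomib libraries. Sodium channel RNA summed to 179 CPM and 178 CPM in the vehicle libraries and 132 CPM and 129.9 CPM in the carfilzomib libraries, and pacemaker channel RNA to 38.7 CPM and 43.4 CPM in the vehicle libraries and 28.0 CPM and 22.9 CPM in the carfilzomib libraries.

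The counts of weak calls depended on the test and on single libraries. DESeq2 called 24 channel genes lower (21.7% of all genes tested were lower by DESeq2) and 3 higher (23.0% of all genes). With both directions counted together, channel genes were thus called less often than all genes with DESeq2, the reverse of the order with edgeR. Lower calls alone, 24 of 79 tested, were still more frequent than over all genes, and higher calls, 3 of 79, less frequent. Among the edgeR calls that DESeq2 lost were those of Cacna1b, Cacna1d, Cacna1e, Cacna1s, Cacng6, Kcnd2, Kcnh1, Kcnab1, Kcnab3, Kcnk5 and Kcnk12. Leaving out vehicle replicate 1 left 5 higher calls and leaving out carfilzomib replicate 1 left 6, in place of 10. Among potassium genes 6 higher calls became 1 on leaving out vehicle replicate 1, 2 on leaving out carfilzomib replicate 1 and 3 on leaving out carfilzomib replicate 2. The sodium median changed sign, to -0.11 without vehicle replicate 2 and to -0.06 without carfilzomib replicate 2, and was 0.25 without vehicle replicate 1. Of the 52 calls, 25 (23 lower and 2 higher) were kept in every alternative that gave a value, and none changed sign. Some fit without a library lost 22 of the calls, and all 22 apart from Kcne4 and Scn8a were also among the 25 that DESeq2 lost. The 2 higher calls kept throughout were those of Kcnab2 and of Scn10a, which had to differ to be tested and so does not count as support.

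**Figure D2:**
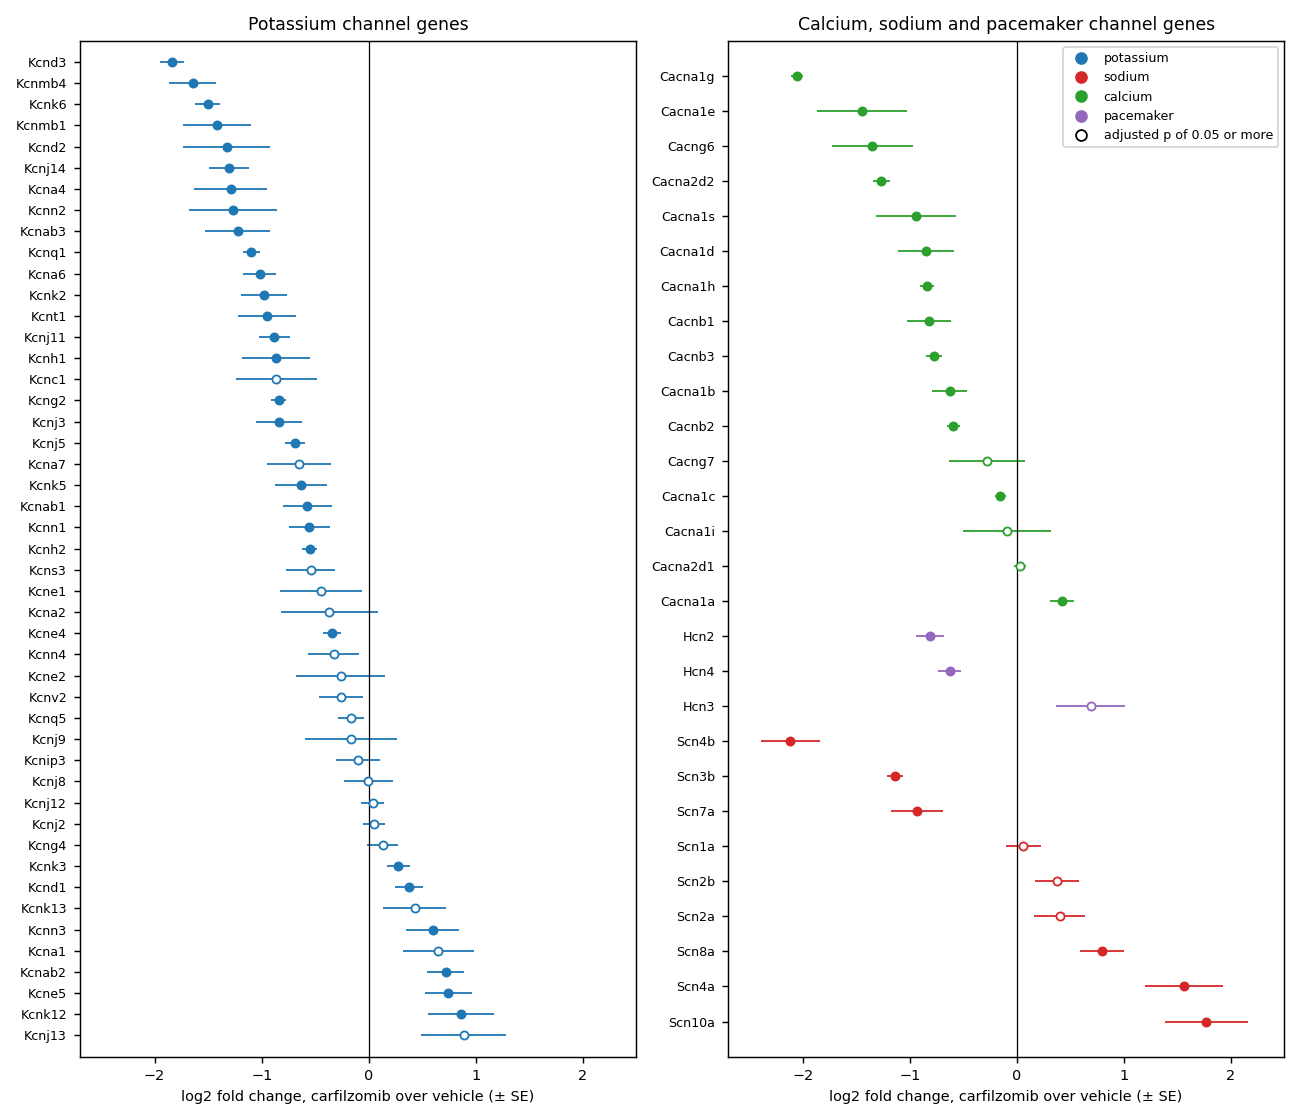
Log2 fold change, carfilzomib over vehicle, with its SE for 75 of the 79 channel genes tested, potassium channels on the left and the other classes on the right. Filled points passed an edgeR adjusted p of 0.05 and open points did not; most filled points lie left of 0, and the largest falls are those of Scn4b, at -2.12, and Cacna1g, at -2.06.

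Sequences upstream of 4 channel genes are shown to set genes that fell clearly (Kcnd3 and Cacna2d2) beside the 2 marker channels that changed little or did not pass (Cacna1c and Kcnj2); they were chosen after their values were seen. RefSeq promoter windows on the rat build GRCr8 were found for 53 of the 80 genes by gene ID, and the 250 bases before the annotated start are printed 5′ to 3′ on the strand of the gene. They lie at chr2:195626066-195626315 (plus strand), chr8:116950856-116951105 (plus), chr4:154051749-154051998 (minus) and chr10:96559975-96560224 (plus). Capitals mark a GC box, GGGCGG on either strand, the core that Sp-family factors bind.
Kcnd3: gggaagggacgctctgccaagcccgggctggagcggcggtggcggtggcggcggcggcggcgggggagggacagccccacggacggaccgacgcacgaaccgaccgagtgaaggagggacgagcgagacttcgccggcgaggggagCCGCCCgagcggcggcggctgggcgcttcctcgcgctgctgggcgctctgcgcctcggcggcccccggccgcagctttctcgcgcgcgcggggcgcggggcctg
Cacna2d2: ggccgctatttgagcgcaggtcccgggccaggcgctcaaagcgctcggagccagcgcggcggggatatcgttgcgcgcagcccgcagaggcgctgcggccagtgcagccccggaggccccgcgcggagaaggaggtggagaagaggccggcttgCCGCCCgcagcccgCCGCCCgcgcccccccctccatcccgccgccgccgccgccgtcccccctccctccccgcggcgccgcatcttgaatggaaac
Cacna1c: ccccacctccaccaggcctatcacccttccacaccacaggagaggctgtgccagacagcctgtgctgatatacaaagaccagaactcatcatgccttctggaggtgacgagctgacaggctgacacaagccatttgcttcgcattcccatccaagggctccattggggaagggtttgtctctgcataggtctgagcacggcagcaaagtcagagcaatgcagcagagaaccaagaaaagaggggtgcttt
Kcnj2: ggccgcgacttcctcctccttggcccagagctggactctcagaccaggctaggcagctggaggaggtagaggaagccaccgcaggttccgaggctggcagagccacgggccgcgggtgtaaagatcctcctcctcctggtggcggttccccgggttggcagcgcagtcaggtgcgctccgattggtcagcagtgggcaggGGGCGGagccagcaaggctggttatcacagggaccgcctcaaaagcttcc

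The windows of Kcnd3 and Cacna2d2 held 79.6% and 76.8% G and C, those of Kcnj2 and Cacna1c 66.0% and 54.4%, and none of the 4 held a TATA box (TATAAA on either strand). Over the whole window of 250 bases before to 50 after the start, a GC box stood in 28 of 53 channel gene promoters, 52.8%, and in 34.9% of all 27457 promoters of the table. Those promoters outnumber the 18699 genes measured and were not filtered by expression, while the channel genes were. The part of that filter in the differences given here was not tested. A TATA box stood in 2 of 53, 3.77%, against 14.3% of all. The median share of G and C was 63.7% over channel genes and 52.3% over all promoters. An E-box (CANNTG) was found in 67.9% of channel genes and 71.6% of all, AGATAA, which cardiac zinc-finger factors bind, in 11.3% of both, and TGACNNNGC, the core of the antioxidant element, in 11.3% and 12.2%. By call, the GC box stood in 17 of 29 genes called lower, in 2 of 7 called higher and in 9 of 16 that did not pass. The median share of G and C in these 3 sets was 63.7%, 66.0% and 59.2%. The contrast in G and C between the 4 windows shown therefore does not stand for the calls as a whole. All motifs were searched on both strands; GC boxes and the other motifs may overlap, and a match of letters is a description of the window, not of a factor bound there.

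The alpha1 genes encode the calcium-conducting pore. Cacna1g, the main T-type pore gene of these cells, was at 142 and 147 CPM in vehicle and 34.1 and 35.4 CPM in carfilzomib libraries. Its carfilzomib libraries lay far below both vehicle libraries, a 4.16-fold fall with a log2 fold change of -2.06 ± 0.06 (SE; edgeR adjusted p = 3.37e-13). T-type channels open at voltages near rest and are abundant in fetal and neonatal ventricle. Cacna1h, the other cardiac T-type gene, was at 63.2 and 63.0 CPM in vehicle and 36.7 and 33.7 CPM in carfilzomib libraries. The groups were again apart, with a log2 fold change of -0.84 ± 0.06 (SE; edgeR adjusted p = 3.08e-08). Cacna1i, the T-type gene of neurons, was under 1 CPM in every library, the groups overlapped and its log2 fold change of -0.09 did not pass.

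Cacna1c, the L-type pore gene that carries the plateau current of ventricular myocytes, was at 93.7 and 90.2 CPM in vehicle and 82.0 and 83.4 CPM in carfilzomib libraries. The carfilzomib libraries lay slightly below the vehicle libraries. The log2 fold change was -0.15 ± 0.05 (SE) with a 95% interval from -0.27 to -0.04 and an edgeR adjusted p of 0.021. That call was lost with DESeq2 (adjusted p 0.0992), with edgeR under library size alone (adjusted p 0.0655), and with edgeR without vehicle replicate 1 (adjusted p 0.092), without carfilzomib replicate 1 (0.141) and without carfilzomib replicate 2 (0.0805). Over the 4 fits that left out a library, its log2 fold change ran from -0.18 to -0.12. Cacna1d, the L-type gene of pacemaker tissue, was at 3.12 and 2.49 CPM in vehicle and 1.31 and 1.80 CPM in carfilzomib libraries. Its log2 fold change was -0.85 ± 0.26 (SE; edgeR adjusted p = 0.0118); that p moved to 0.132 on leaving out vehicle replicate 1 and to 0.107 without carfilzomib replicate 1. Cacna1s, the L-type gene of skeletal muscle, had a log2 fold change of -0.94 that was -1.65 without carfilzomib replicate 1 and -0.47 without carfilzomib replicate 2, where the call was lost (edgeR adjusted p 0.355). It was also lost without vehicle replicate 1 (edgeR adjusted p 0.118) or vehicle replicate 2 (0.212).

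The alpha1 genes of neuronal channels did not move together. Cacna1a, the P/Q-type gene, was the calcium channel gene called higher, at 9.75 and 11.5 CPM in vehicle and 14.3 and 14.1 CPM in carfilzomib libraries. All carfilzomib values lay above all vehicle values, with a log2 fold change of 0.42 ± 0.11 (SE), an edgeR adjusted p of 0.004 and a DESeq2 adjusted p of 0.0686. Cacna1b, the N-type gene, had a log2 fold change of -0.63 ± 0.16 (SE; edgeR adjusted p = 0.00411), lost without vehicle replicate 1 (0.0915) and without carfilzomib replicate 1 (0.0555). Cacna1e, the R-type gene near 1 CPM, had -1.45 ± 0.42 (SE; edgeR adjusted p = 0.00829) that rose to 0.136 on leaving out vehicle replicate 2 and 0.102 on leaving out carfilzomib replicate 1.

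The makeup of the calcium pore RNA differed between the groups. FPKM, which are divided by gene length, allow genes to be set side by side. Per length, the 3 T-type genes made up 70.0% and 71.4% in the vehicle libraries and 49.0% and 48.0% in the carfilzomib libraries of the summed alpha1 level. Cacna1c, Cacna1d and Cacna1s made up 23.9% and 22.6% in the vehicle libraries and 39.1% and 39.5% in the carfilzomib libraries. The ratio of Cacna1g to Cacna1c in FPKM was 2.15 and 2.35 in the vehicle libraries and 0.622 and 0.639 in the carfilzomib libraries, so the order of the 2 genes was reversed. Summed alpha1 FPKM was 36.9 and 36.9 in the vehicle libraries and 18.7 and 18.6 in the carfilzomib libraries. With 2 libraries a group an exact permutation test of such a share cannot give a p below 0.333, and none is given.

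Of the 7 accessory calcium channel genes 5 were lower, where 30.1% of all genes tested were, and 2, Cacna2d1 and Cacng7, did not pass. Cacna2d1, the main cardiac alpha2delta subunit, which brings the pore to the membrane, was at 101 and 92.6 CPM in vehicle and 97.7 and 100.0 CPM in carfilzomib libraries. Those values overlapped, and the difference of 0.03 ± 0.05 (SE) on the log2 scale did not pass (95% interval from -0.09 to 0.15; edgeR adjusted p 0.66). Cacna2d2, its paralog, was at 54.9 and 58.3 CPM in vehicle and 25.6 and 21.4 CPM in carfilzomib libraries. It fell clear of the vehicle libraries, with a log2 fold change of -1.27 ± 0.08 (SE; edgeR adjusted p = 6.01e-09). All 3 beta subunit genes, whose products chaperone the pore and shift its gating, fell. Cacnb2, the main cardiac beta subunit, was at 56.9 and 56.0 CPM in vehicle and 36.2 and 38.6 CPM in carfilzomib libraries, a log2 fold change of -0.59 ± 0.06 (SE; edgeR adjusted p = 1.01e-06). For Cacnb3 the log2 fold change was -0.77 (edgeR adjusted p 5.43e-07) and for Cacnb1 -0.82 (edgeR adjusted p 0.00301; 0.0674 with DESeq2). Of the gamma subunit genes Cacng6 had -1.35 ± 0.38 (SE), lost without vehicle replicate 2 (edgeR adjusted p 0.0937) and without carfilzomib replicate 2 (0.0917, log2 fold change -0.89) and -2.03 without carfilzomib replicate 1, and Cacng7 did not pass at -0.28.

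**Figure D3:**
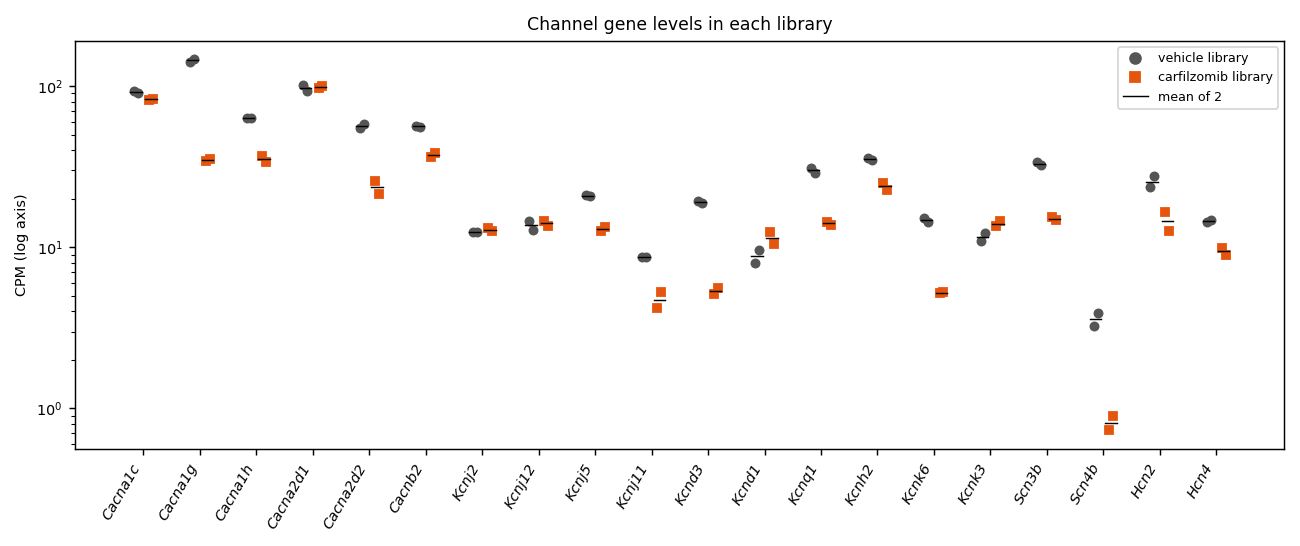
CPM in each of the 4 libraries (log axis) for 20 channel genes, with black bars at the mean of the 2 libraries of a group. The carfilzomib squares lie well below the vehicle circles for Cacna1g, Kcnd3, Kcnk6 and Scn4b, and the groups overlap for Cacna2d1 and Kcnj12.

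Of 9 inward rectifier genes 4 were lower (44.4%), none was higher and 5 did not pass. Over all genes tested 30.1% were lower and 30.6% higher. Kcnj2, the main gene of the current that holds the ventricular resting voltage, was at 12.4 and 12.4 CPM in vehicle and 13.1 and 12.6 CPM in carfilzomib libraries. The carfilzomib libraries lay barely above the vehicle libraries, and the difference of 0.05 ± 0.10 (SE) on the log2 scale did not pass (95% interval from -0.17 to 0.26; edgeR adjusted p 0.713). Kcnj12, which contributes to the same current, was at 14.6 and 12.8 CPM in vehicle and 14.5 and 13.6 CPM in carfilzomib libraries. Here the groups overlapped, with a log2 fold change of 0.04 ± 0.10 (SE), a 95% interval from -0.19 to 0.26 and an edgeR adjusted p of 0.78. Kcnj14, the third gene of that subfamily among the members, was at 6.52 and 6.28 CPM in vehicle and 2.15 and 3.02 CPM in carfilzomib libraries. It fell, with a log2 fold change of -1.31 ± 0.19 (SE; edgeR adjusted p = 2.69e-05).

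Kcnj5 and Kcnj3 encode the pair of subunits of the acetylcholine-gated channel, through which the vagus nerve slows the heart. Kcnj5 was at 21.0 and 20.7 CPM in vehicle and 12.5 and 13.3 CPM in carfilzomib libraries. Its groups were apart, with a log2 fold change of -0.69 ± 0.09 (SE; edgeR adjusted p = 9.07e-06). Kcnj3 was at 4.58 and 3.63 CPM in vehicle and 2.31 and 2.28 CPM in carfilzomib libraries, a log2 fold change of -0.84 ± 0.21 (SE; edgeR adjusted p = 0.00307); that p was 0.066 without vehicle replicate 1 and 0.0619 with DESeq2. Kcnj11, the pore of the ATP-sensitive channel that links membrane voltage to energy state, was at 8.73 and 8.66 CPM in vehicle and 4.19 and 5.24 CPM in carfilzomib libraries. It fell by 0.88 on the log2 scale with an edgeR adjusted p of 1.15e-04. Kcnj8, the other ATP-sensitive pore gene and one also found in vascular smooth muscle and pericytes, was at 2.53 and 2.49 CPM in vehicle and 2.73 and 2.28 CPM in carfilzomib libraries. Its groups overlapped and its log2 fold change of -0.0048 ± 0.23 (SE) had a 95% interval from -0.50 to 0.49, so a change of up to about that size was not detectable at this depth. Kcnj9 and Kcnj13, both near 1 CPM or below, did not pass at -0.16 and 0.89. The ratio of Kcnj5 to Kcnj2 in FPKM was 4.41 and 4.09 in the vehicle libraries and 2.48 and 2.75 in the carfilzomib libraries.

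Voltage-gated potassium pores repolarise the cell. In rodent ventricle the transient outward current that starts repolarisation comes from Kcnd genes. Kcnd3 was at 19.4 and 18.7 CPM in vehicle and 5.14 and 5.56 CPM in carfilzomib libraries. The carfilzomib libraries held less than any vehicle library by a wide margin, a 3.57-fold fall with a log2 fold change of -1.83 ± 0.11 (SE; edgeR adjusted p = 2.39e-09). Kcnd2 was weakly expressed, at 0.969 and 1.30 CPM in vehicle and 0.524 and 0.371 CPM in carfilzomib libraries, a log2 fold change of -1.33 ± 0.41 (SE). The edgeR adjusted p was 0.0112, but 0.149 on leaving out vehicle replicate 2 and 0.109 on leaving out carfilzomib replicate 2. Kcnd1 went the other way, at 7.97 and 9.64 CPM in vehicle and 12.4 and 10.5 CPM in carfilzomib libraries. The groups did not overlap and the log2 fold change was 0.38 ± 0.13 (SE; edgeR adjusted p = 0.0209), lost without vehicle replicate 1 (0.169, log2 fold change 0.25) and without carfilzomib replicate 1 (0.207, log2 fold change 0.25) and with DESeq2 (0.162). The FPKM ratio of Kcnd3 to Kcnd1 was 1.32 and 1.09 in the vehicle libraries and 0.233 and 0.29 in the carfilzomib libraries. Kcnip2, the accessory subunit that speeds this current, lay outside the members, with counts of 0 and 21 with vehicle and 0 and 4 with carfilzomib.

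Kcnq1 and Kcnh2 carry the slow and the rapid delayed rectifier currents, and their loss in people lengthens the QT interval. Kcnq1 was at 31.2 and 28.9 CPM in vehicle and 14.3 and 13.8 CPM in carfilzomib libraries. It fell by 1.10 ± 0.08 (SE; edgeR adjusted p = 2.29e-08) on the log2 scale. Kcnh2 was at 35.6 and 34.5 CPM in vehicle and 25.2 and 22.7 CPM in carfilzomib libraries, with the groups apart. Its log2 fold change was -0.55 ± 0.07 (SE; edgeR adjusted p = 9.60e-06). Kcna4, another transient outward pore, was at 1.67 and 1.57 CPM in vehicle and 0.734 and 0.583 CPM in carfilzomib libraries, a log2 fold change of -1.29 ± 0.34 (SE; edgeR adjusted p = 0.00413), with a DESeq2 adjusted p of 0.089. Kcna5, the ultrarapid pore of atria, lay outside the members with counts from 5 to 7.

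Kcng2, a silent subunit that forms no channel alone and modifies other voltage-gated channels, was the most abundant voltage-gated potassium gene per length. It was at 24.6 ± 0.396 FPKM with vehicle and 14.0 ± 1.27 FPKM with carfilzomib (mean ± SD, n = 2), and in CPM at 66.9 and 70.3 CPM in vehicle and 40.9 and 35.7 CPM in carfilzomib libraries. The fall was clear of the vehicle spread, at -0.84 ± 0.07 (SE; edgeR adjusted p = 9.59e-08) on the log2 scale. The other silent subunit genes tested, Kcng4, Kcns3 and Kcnv2, did not pass, with log2 fold changes of 0.13, -0.54 and -0.26. Kcns3 was just over the threshold (edgeR adjusted p 0.0518) and was called lower with the stricter filter (0.0469), with limma-voom (0.0462) and without carfilzomib replicate 1, where its log2 fold change was -0.85 (edgeR adjusted p 0.0183). Among the remaining pore genes Kcna6 fell, with -1.02 ± 0.16 (SE; edgeR adjusted p = 5.13e-05). Kcnh1 had -0.87 with an edgeR adjusted p of 0.028, and no fit that left out a library kept the call (adjusted p from 0.0511 to 0.207). Kcna1, Kcna2, Kcna7, Kcnc1 and Kcnq5 did not pass, with log2 fold changes from -0.86 for Kcnc1 to 0.65 for Kcna1. In all, 8 of the 19 genes of this family tested were lower (42.1%, against 30.1% of all genes) and 1 was higher (5.26%, against 30.6%).

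Of 10 accessory potassium subunit genes 5 were lower and 2 higher. Kcne4, which restrains Kcnq1 channels, was the most abundant per length, at 13.9 ± 0.559 FPKM with vehicle and 10.3 ± 0.382 FPKM with carfilzomib (mean ± SD, n = 2). In CPM it was at 26.0 and 24.2 CPM in vehicle and 18.5 and 21.0 CPM in carfilzomib libraries, with the groups apart. Its log2 fold change was -0.35 ± 0.08 (SE; edgeR adjusted p = 0.00248); that p was 0.0547 without carfilzomib replicate 1. Kcne5, another small subunit of the family, was at 1.99 and 2.60 CPM in vehicle and 3.67 and 4.03 CPM in carfilzomib libraries. It was higher in both carfilzomib libraries, with a log2 fold change of 0.74 ± 0.22 (SE; edgeR adjusted p = 0.00798); that p moved to 0.0874 on leaving out vehicle replicate 1, to 0.055 without carfilzomib replicate 2 and 0.113 with DESeq2. Kcne1, the partner of Kcnq1 in the slow delayed rectifier, was at 0.808 and 1.14 CPM in vehicle and 0.681 and 0.742 CPM in carfilzomib libraries. The difference of -0.45 ± 0.38 (SE) on the log2 scale did not pass (edgeR adjusted p 0.328), and neither did Kcne2 at -0.26 or Kcnip3, a calcium-binding Kcnd partner, at -0.10.

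The beta subunits of the large-conductance calcium-activated channel both fell. Kcnmb4 was at 5.92 and 4.82 CPM in vehicle and 1.99 and 1.43 CPM in carfilzomib libraries, a log2 fold change of -1.65 ± 0.22 (SE; edgeR adjusted p = 1.23e-05). Kcnmb1, known for its role in vascular smooth muscle, was at 2.05 and 2.76 CPM in vehicle and 0.681 and 1.11 CPM in carfilzomib libraries, a log2 fold change of -1.42 ± 0.32 (SE; edgeR adjusted p = 0.00136). All 7 smooth muscle and pericyte markers were lower in the same libraries, and their part in this result was not tested. The pore they join, Kcnma1, had counts from 3 to 9 and was no member. Of the cytoplasmic beta subunits Kcnab2 rose, at 6.57 and 4.38 CPM in vehicle and 9.59 and 8.48 CPM in carfilzomib libraries. Its log2 fold change was 0.72 ± 0.17 (SE; edgeR adjusted p = 0.00258), and from 0.46 without vehicle replicate 2 to 1.04 without vehicle replicate 1. Kcnab3 had -1.23 ± 0.30 (SE) (edgeR adjusted p 0.0027; 0.0561 without vehicle replicate 2). Kcnab1 had -0.58 with an edgeR adjusted p of 0.0403, not kept in any fit that left out a library (0.0789 to 0.193).

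Channels of the two-pore family carry the background potassium leak. Kcnk6 was at 15.2 and 14.4 CPM in vehicle and 5.19 and 5.24 CPM in carfilzomib libraries, and Kcnk3, an acid-sensitive channel, at 10.9 and 12.2 CPM in vehicle and 13.6 and 14.5 CPM in carfilzomib libraries. The first fell, with a log2 fold change of -1.51 ± 0.12 (SE; edgeR adjusted p = 4.46e-08). The second was slightly higher in both carfilzomib libraries, with 0.28 ± 0.11 (SE; edgeR adjusted p = 0.036), a call lost with DESeq2 (0.254) and without vehicle replicate 1 (0.174), carfilzomib replicate 1 (0.0573) or carfilzomib replicate 2 (0.174). Kcnk6 made up 49.5% and 45.9% in the vehicle libraries and 22.2% and 22.6% in the carfilzomib libraries of the summed FPKM of the 6 two-pore genes, and Kcnk3 32.6% and 35.8% in the vehicle libraries and 53.4% and 57.3% in the carfilzomib libraries. The leading two-pore gene per length was therefore Kcnk6 with vehicle and Kcnk3 with carfilzomib. Kcnk2, the stretch-sensitive channel of cardiomyocytes and fibroblasts, was at 4.26 and 4.98 CPM in vehicle and 2.73 and 1.96 CPM in carfilzomib libraries. It fell, with -0.98 ± 0.21 (SE; edgeR adjusted p = 0.00105) on the log2 scale. Kcnk5 had -0.63 with an edgeR adjusted p of 0.0362, not kept in any of the 4 fits without a library (0.0596 to 0.186). Kcnk12 was higher by 0.86 with an edgeR adjusted p of 0.0255, lost without vehicle replicate 1 (0.118), vehicle replicate 2 (0.0953) or carfilzomib replicate 1 (0.211), and Kcnk13 did not pass at 0.43.

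Small-conductance calcium-activated channels (Kcnn1 to Kcnn3), the intermediate-conductance channel Kcnn4 and the sodium-activated channel Kcnt1 were all under 5 CPM. Kcnn4 was the most abundant per length, at 1.40 ± 0.00707 FPKM with vehicle and 1.17 ± 0.0283 FPKM with carfilzomib (mean ± SD, n = 2), and did not pass, with a log2 fold change of -0.33. Kcnn1, Kcnn2 and Kcnt1 had log2 fold changes of -0.55, -1.27 and -0.95 with edgeR adjusted p of 0.0194, 0.0152 and 0.00692. Kcnn3 had 0.60 with an edgeR adjusted p of 0.0493. None of these 4 calls held with DESeq2 (adjusted p from 0.117 to 0.27). Each was also lost with edgeR without vehicle replicate 1 (Kcnn2, 0.234; Kcnn3, 0.322), vehicle replicate 2 (Kcnn1, 0.147; Kcnt1, 0.07), carfilzomib replicate 1 (Kcnn1, 0.082; Kcnn2, 0.122; Kcnn3, 0.224) or carfilzomib replicate 2 (Kcnn1, 0.0682; Kcnn3, 0.0609). The log2 fold change of Kcnn3 ranged from 0.35 to 0.89 over these fits.

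Of the 7 sodium pore genes 2 were lower (28.6%, near the 30.1% of all genes tested) and 3 higher (42.9%, against 30.6%). Scn7a, a sodium-sensing relative found in glia and in heart, was at 2.96 and 2.87 CPM in vehicle and 1.52 and 1.54 CPM in carfilzomib libraries, a log2 fold change of -0.93 ± 0.24 (SE; edgeR adjusted p = 0.00394), with a DESeq2 adjusted p of 0.0829. None of the 4 Schwann cell markers tested passed, and the 5 markers summed to 20.2 to 21.6 CPM with vehicle and 16.5 to 17.6 CPM with carfilzomib; their part was not tested.

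Scn8a, a pore gene best known from neurons, was at 4.15 and 2.65 CPM in vehicle and 5.45 and 6.36 CPM in carfilzomib libraries. Its groups were apart, with a log2 fold change of 0.79 ± 0.20 (SE; edgeR adjusted p = 0.0036); without vehicle replicate 2 the log2 fold change was 0.51 and the adjusted p 0.0634, and without vehicle replicate 1 it was 1.15. Scn4a, the skeletal muscle gene, was at 0.592 and 0.433 CPM in vehicle and 1.42 and 1.64 CPM in carfilzomib libraries. It was higher by 1.56 ± 0.37 (SE; edgeR adjusted p = 0.00182), with a DESeq2 adjusted p of 0.0518. Scn10a, known from sensory and cardiac neurons, was at 0.431 and 0.379 CPM in vehicle and 1.26 and 1.54 CPM in carfilzomib libraries, a log2 fold change of 1.77 ± 0.39 (SE; edgeR adjusted p = 0.00111). It reached the filter only in the carfilzomib libraries. The 2 largest rises thus belonged to genes at or below 1.64 CPM. Scn1a and Scn2a did not pass, at 0.06 and 0.40. Of 7 neuron markers 3 were tested: Tubb3 was higher, at 43.6 and 49.0 CPM in vehicle and 83.1 and 78.5 CPM in carfilzomib libraries, and Nefl and Elavl4 were lower. The other 4 were too weak to test. The 7 summed to 47.2 to 52.3 CPM with vehicle and 80.3 to 86.3 CPM with carfilzomib, and nearly all of that sum was Tubb3 in every library. The part of neurons in the sodium channel result was not tested.

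Sodium channel beta subunits anchor the pore and tune its gating. Scn3b was at 33.7 and 32.4 CPM in vehicle and 15.3 and 14.8 CPM in carfilzomib libraries, with no overlap. Its log2 fold change was -1.13 ± 0.08 (SE; edgeR adjusted p = 7.24e-09). Scn4b was at 3.23 and 3.90 CPM in vehicle and 0.734 and 0.901 CPM in carfilzomib libraries. That was a 4.34-fold fall, with a log2 fold change of -2.12 ± 0.27 (SE; edgeR adjusted p = 8.50e-06). Its estimate lay within its SE of that of Cacna1g, and without vehicle replicate 2 (-1.98) or carfilzomib replicate 1 (-1.98) it was the smaller fall of the 2. Scn2b did not pass at 0.37, although both carfilzomib libraries lay above the vehicle libraries. Summed beta subunit FPKM was 44.6 and 46.3 in the vehicle libraries and 29.6 and 27.0 in the carfilzomib libraries, while summed pore FPKM was 11.5 and 10.7 in the vehicle libraries and 10.2 and 10.4 in the carfilzomib libraries.

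The pacemaker channels were carried by Hcn2 and Hcn4. Hcn2, the main ventricular gene of the family, was at 23.5 and 27.6 CPM in vehicle and 16.5 and 12.6 CPM in carfilzomib libraries. Both carfilzomib libraries lay below, with a log2 fold change of -0.81 ± 0.13 (SE; edgeR adjusted p = 4.38e-04). Hcn4, the main gene of the sinus node, was at 14.4 and 14.8 CPM in vehicle and 9.91 and 8.95 CPM in carfilzomib libraries. It fell too, at -0.63 ± 0.11 (SE; edgeR adjusted p = 1.34e-04). The FPKM ratio of Hcn2 to Hcn4 was 2.58 and 2.94 in the vehicle libraries and 2.62 and 2.22 in the carfilzomib libraries, which overlap between the groups. Hcn3 was at 0.808 and 1.08 CPM in vehicle and 1.62 and 1.43 CPM in carfilzomib libraries, higher in both treated libraries, but with 0.69 ± 0.33 (SE) on the log2 scale it did not pass (edgeR adjusted p 0.0804). Of 7 other markers of pacemaker and conduction tissue 6 were tested; Gjc1 and Cntn2 were lower, none was higher, and the list summed to 103 to 105 CPM with vehicle and 83.0 to 84.1 CPM with carfilzomib. The part of such cells was not tested.

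**Figure D4:**
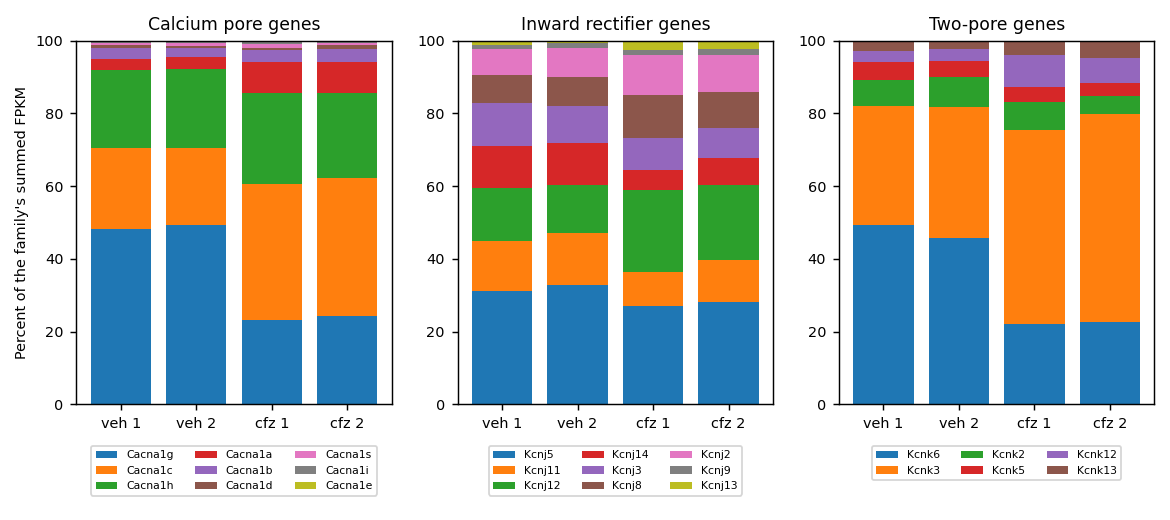
Share of each gene in the summed FPKM of its family, in percent, in the 2 vehicle (veh) and 2 carfilzomib (cfz) libraries, for calcium pores, inward rectifiers and two-pore channels. The Cacna1g and Kcnk6 segments are smaller in both carfilzomib libraries, where those of Cacna1c and Kcnk3 are larger.

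Ordered by mean FPKM with vehicle, Kcng2, Cacna1g, Cacnb2, Cacnb3 and Kcne4 were at ranks 2 to 6, and the first 9 genes held 52.1% of the summed level of all 80. The neighbours Kcne4 (13.9 ± 0.56 FPKM) and Cacna2d1 (13.4 ± 1.09) differed by less than the SD of either. With carfilzomib Cacna2d1 moved from rank 7 to rank 2 at 14.2 ± 0.30 FPKM, next to Kcng2 at 14.0 ± 1.27, and Cacna1g from rank 3 to rank 15. Summed over all 80 genes, FPKM was 298.8 and 299.9 in the vehicle libraries and 207.6 and 199.3 in the carfilzomib libraries.

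Genes listed as partners or regulators of these channels were counted from a separate list of 40, of which 39 were in the table and 37 were tested. Of these 18 (48.6%) were lower, against 30.1% of all genes tested, and 11 (29.7%) higher, against 30.6%, with a median log2 fold change of -0.19 against 0.00. The largest falls were those of Stac, an adaptor of L-type channels, at -2.16, of Abcc8, a regulatory subunit of ATP-sensitive channels, at -1.64, and of Cav3, muscle caveolin, at -1.10 on the log2 scale. Abcc9, the other regulatory subunit, was at 75.7 and 70.6 CPM in vehicle and 50.8 and 49.9 CPM in carfilzomib libraries. It was lower in both carfilzomib libraries, with a log2 fold change of -0.54 ± 0.06 (SE; edgeR adjusted p = 2.24e-06). The largest rises were those of Bin1, which shapes the transverse tubules that hold L-type channels, at 0.79, of Sumf1, which is best known as an enzyme that activates sulfatases, at 0.68, and of Gem, a GTPase that restrains L-type channels, at 0.66. Of 42 tested channel genes of other families 14 (33.3%) were lower and 10 (23.8%) higher, with a median of -0.06, beside 30.1%, 30.6% and 0.00 over all genes tested. Among the largest falls there were the cation channel genes Trpc6 (-2.41) and Piezo2 (-1.09), and the largest rises in Itpr3 (0.72), Pkd2 (0.58) and Vdac3 (0.57), which serve intracellular membranes. All these calls were edgeR calls at an adjusted p under 0.05 over all genes, and the lists were not compared with one another by a test.

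The authors' deposited table of their own comparison lists 25 of the 80 channel genes, 31.2%, where it lists 32.4% of all genes of the expression table. Of these 25 genes, 23 are lower in the authors' deposited table (15.4% of all genes are listed as lower) and 2, Scn10a and Kcnab2, are higher. All 25 were called here by edgeR with the same sign, and 27 further genes were called here by edgeR that the authors' deposited table does not list. Among the latter are Cacna1c, Cacna1d, Kcnj3, Kcnd1, Kcnk3 and Scn8a. The authors' comparison rests on the same 4 libraries and on DESeq2, so the shared signs are no independent support. The authors' deposited table gives Cacna1g a log2 fold change of -2.05 and Kcnd3 one of -1.83.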

How the data were processed

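RNA-seq of 4 libraries, 2 vehicle and 2 carfilzomib, was analysed. The tables call 2 columns control; no control other than vehicle is labelled, so they were matched to the vehicle libraries by number. Per the file headers, the deposited values are raw read counts, here treated as estimated counts because 38 of the 80 channel genes hold decimals (tolerance 1e-06), and FPKM, used only for levels between genes. A second table by the authors gives log2 fold changes and DESeq2 q-values, per its file headers. The submitters' processing notes name R 3.3.2, DESeq2, featureCounts 1.6.0, Bowtie2, HISAT, cutadapt 2.0, FastQC 0.11.8 and build Rnor_6.0, without saying what each did. Of the expression table, 10 further columns stayed unused.

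Counts were rounded, filtered with filterByExpr (minimum count 10, total 15; 14519 genes left) and tested with edgeR 4.0.16 (TMM, robust quasi-likelihood F test, Benjamini-Hochberg at 0.05) in R 4.3.3. SE is the absolute log2 fold change over the square root of F, and 95% intervals use its t quantile. The length implied by counts and FPKM differed by over 10% between groups for 2 of 42 channel genes of at least 1 FPKM. Tested on simulated counts of 14519 genes, edgeR found 36% of 1.25-fold, 68% of 1.5-fold and 90% of 2-fold changes, and 6 of its 152 calls were false. Every simulated gene had the same biological coefficient of variation, 0.0465, and only a small part of the genes was changed. These rates cover genes of all levels together and need not hold for the real data or for weakly expressed channel genes. Alternatives were DESeq2 1.42.0, limma-voom (limma 3.58.1), RLE factors, library size alone, no filter, a stricter filter (1 CPM in 2 libraries, total 50), a replicate block, subsets of the members and each library left out. Members and lists were chosen with earlier results of these data known. Any member could be named; fuller values went to a set of cardiac channels, the 6 largest called rises and falls of at least 1 CPM, the most abundant gene of each family, and the 3 largest rises and falls of the other lists. Dpp10 of the partner list was not matched. Some of the genes that rule names are not reported here, but all remain in the counts and sums.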

Additional observations from a re-analysis of the deposited data

How the results depend on the processing

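DESeq2 gave 3 higher and 24 lower channel genes, in place of 10 and 42. It called 0 of 16 calcium genes higher and 5 lower, and 1 of 49 potassium genes higher and 13 lower. Over all genes tested DESeq2 called 23.0% higher and 21.7% lower. The excess of lower calls in these 2 classes was thus smaller than with edgeR. The cause of the difference was not tested. Keeping only members with a mean count of at least 50 left 6 higher and 27 lower, and only those with whole counts 5 and 22, because fewer genes were then counted. The potassium median was -0.49 with no low-count filter and -0.51 with library size alone. Leaving out each library in turn gave 5 to 8 higher channel genes, 1 to 5 higher potassium genes, and medians from -0.80 to -0.67 for calcium, -0.53 to -0.50 for potassium and -0.11 to 0.25 for sodium genes. The sign changed only for genes that did not pass: Cacna1i (-0.51 to 0.24), Cacna2d1 (-0.032 to 0.10), Kcnj12 (-0.056 to 0.14), Kcnj8 (-0.14 to 0.12, and 0.028 with library size alone) and Scn1a (-0.11 to 0.26). With a replicate block 9 channel genes were higher and 38 lower, without Cacna1c (edgeR adjusted p 0.0573), Cacna1s (0.064), Kcnab1 (0.0678), Kcnk5 (0.0608) and Kcnn3 (0.087). Same-numbered libraries did not deviate together across genes (r = -0.0023), and the numbers are not taken as a pairing. That r covers genes of all levels, weak ones included, so it cannot show whether same-numbered libraries were prepared together, which is not labelled. Genes near 1 CPM rest on few counts, and a difference there may not be detectable at this depth.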
